A study of Mus musculus with 12 samples.

Results

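The 8 genes described here encode products that goblet cells of the mouse intestine make for the mucus layer, namely Muc2, Fcgbp, Clca1, Zg16, Tff3, Agr2, Spink4 and Retnlb. They were chosen by name as a functional group, with earlier results of these data known, and are 8 of the 54532 genes in each expression table. The study deleted ieCtnnb1, an intestinal enhancer of Ctnnb1, and sequenced RNA of small intestinal crypts and of colon tumors. The 12 libraries fall into 4 groups of 3. Crypts came from untreated adult mice that were either wild type or homozygous for the CRISPR-made deletion (Ctnnb1Δi.enh). Tumors came from untreated adult ApcMin/+ mice, which carry a nonsense allele of Apc, and from Ctnnb1Δi.enh;ApcMin/+ mice, which carry that allele together with the deletion. The deletion is in the germ line, so every tissue of a knockout mouse carries it. Crypts were released with EDTA and passed through a filter, whereas tumors were taken as whole tissue. The authors give 3 mice for each group, and whether a tumor library pools tumors of 1 mouse is not given in the sources used here. Organ, tumor state, Apc allele and preparation change together between the tables and cannot be told apart. The paper gives no age with the crypt RNA-seq, so age may differ as well.

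Goblet cells are secretory cells of the intestinal epithelium that release a gel over the surface. MUC2 is the mucin that forms the gel, and the other secreted proteins are packed with it, cut it, or protect the epithelium beneath. The transcription factors ATOH1 and SPDEF direct the secretory lineage and goblet cell maturation, and Wnt signaling through β-catenin, the product of Ctnnb1, maintains the crypt stem cells from which these cells derive.

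Levels are FPKM, fragment counts scaled to gene length and library depth, so they can be compared between genes of 1 table. Depth was between 14457896 and 16156712 fragments on genes per library, recovered from the steps of the FPKM values. Ctnnb1, the gene next to the deleted enhancer, was at 121, 134 and 123 FPKM in wild-type crypts and at 102, 104 and 105 FPKM in knockout crypts. In tumors it was at 299, 363 and 358 FPKM with ApcMin/+ alone and at 279, 248 and 250 FPKM with the deletion as well. In both tissues each knockout library was below each control library. Axin2, a target of Wnt signaling, had the same order, with means of 21.2 and 16.5 FPKM in wild-type and knockout crypts and of 102 and 81.3 FPKM in tumors without and with the deletion. Of all genes tested, 5.15% in crypts and 10.6% in tumors were lower without overlap. By limma, neither gene had an adjusted p under 0.05 in either tissue.

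Some libraries stood apart. In the tumors, replicate 3 of both genotypes expressed Xist, at 114 and 61.4 FPKM, and the other 4 libraries did not exceed 0.0623 FPKM. Wild-type crypt replicates 1 and 2 held more stomach transcripts than the other crypt libraries: Tff2 was at 122 and 53.6 FPKM there and at 1.09 FPKM in replicate 3. Knockout crypt replicate 3 had the highest summed level of 6 tuft cell markers, 64.9 FPKM, against 26.4 to 46.3 FPKM in the other crypt libraries.

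Promoters of the genes are shown because the genes moved together in the tumors. The RefSeq table of the GRCm38.p6 build held 3 of the 8, those of Muc2, Fcgbp and Agr2. Each line gives the 250 bases before the start, on the plus strand, at chr7:141690090-141690339 for Muc2, chr7:28070986-28071235 for Fcgbp and chr12:35992675-35992924 for Agr2. The RefSeq start of Agr2 lies inside the gene as the tables place it, so the last 18 bases of its window are within the gene. Capitals mark matches to the words searched on both strands.
Muc2: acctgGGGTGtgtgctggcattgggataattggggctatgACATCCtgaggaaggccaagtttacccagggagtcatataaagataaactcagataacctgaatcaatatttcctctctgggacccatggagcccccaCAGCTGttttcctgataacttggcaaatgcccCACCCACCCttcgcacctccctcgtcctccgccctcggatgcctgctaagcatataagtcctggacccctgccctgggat
Fcgbp: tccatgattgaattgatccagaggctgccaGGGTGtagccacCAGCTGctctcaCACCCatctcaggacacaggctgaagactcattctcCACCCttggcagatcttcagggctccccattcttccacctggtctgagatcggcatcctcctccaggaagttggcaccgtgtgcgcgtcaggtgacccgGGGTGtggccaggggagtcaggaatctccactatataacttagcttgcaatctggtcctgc
Agr2: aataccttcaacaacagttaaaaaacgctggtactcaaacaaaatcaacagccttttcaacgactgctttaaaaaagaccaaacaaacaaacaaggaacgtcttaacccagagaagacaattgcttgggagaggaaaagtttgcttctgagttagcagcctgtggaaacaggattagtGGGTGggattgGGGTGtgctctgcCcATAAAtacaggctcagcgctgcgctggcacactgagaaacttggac
CAGCTG, an E-box of the kind bound by ATOH1, was in the Muc2 and Fcgbp windows and in 13.0% of all 32851 promoters of this length. GGATGT, an ETS-like word, was on the opposite strand of the Muc2 window only and in 9.46% of all promoters. CACCC, a KLF-type word, was in all 3 windows and in 52.0% of all promoters, and in Muc2 a pair of its matches shares a base. TTTATNG, a CDX-type word, was in the Agr2 window and in 9.81% of all promoters. The other words were in none of the 3 windows: CAGATG (14.4% of all promoters), GGATCC (5.44%), the forkhead words TGTTTAC (3.17%) and TGTTTGC (4.30%), the STAT words TTC and GAA with 4 free bases between them (5.85%) or with 3 (7.02%), the TCF/LEF words CTTTGAT (3.21%) and CTTTGTT (5.03%), and ACGTG (16.6%). A match here describes letters and not binding.

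In colon tumors all 8 genes were higher with the deletion, and for each of them the lowest double-mutant library was above the highest ApcMin/+ library. Groups did not overlap in that direction for 11.4% of the 16743 genes tested, and in the lower direction for 10.6% of genes and none of the 8. The genes tested had a mean of at least 0.5 FPKM, which all 8 reached in both tables. All 8 had an unadjusted p under 0.05 and a higher level, as had 8.46% of genes, while 6% had such a p and a lower level. No gene reached an adjusted p under 0.05 in limma, so 0 of the 8 and 0% of all genes were called. The adjusted p of the 8 was 0.269 to 0.278, and 0.269 was the lowest of any gene. The authors used another test, DESeq2 on read counts, and reported genes changed in both directions in these tumors. They list mucin biosynthesis among the functions of the increased genes. A change in the number of cells of a type and a change in RNA per cell cannot be told apart in these bulk samples. This holds here as in every result that follows.

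Muc2, the gel-forming mucin at chr7:141690340-141754693, was at 151, 123 and 114 FPKM in ApcMin/+ tumors and at 259, 419 and 295 FPKM in double-mutant tumors. The lowest double-mutant value was above the highest ApcMin/+ value. Its means were 129 ± 19.5 and 324 ± 84.3 FPKM (SD, n = 3), a ratio of 2.51 and a difference of 1.31 ± 0.21 (SE) in log2(FPKM + 0.5). This scale understates changes of genes at low levels. Fcgbp, at chr7:28071236-28120862, encodes a large protein that binds within the mucus gel. It was at 81.6, 54.3 and 48.5 FPKM in ApcMin/+ tumors and at 107, 178 and 116 FPKM in double mutants, a log2 difference of 1.11 ± 0.26 (SE). Clca1, at chr3:145003817-145032776, encodes a protease that cuts MUC2. It was at 96.2, 54.9 and 50.5 FPKM in ApcMin/+ tumors and at 125, 187 and 127 FPKM in double mutants, a log2 difference of 1.15 ± 0.28 (SE). In all 3 of these genes ApcMin/+ replicate 1 was the highest control and double-mutant replicate 2 the highest library.

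Zg16, at chr7:127050156-127087328, encodes a lectin that binds bacterial walls. It was at 155, 180 and 178 FPKM in ApcMin/+ tumors and at 295, 326 and 403 FPKM in double mutants, a log2 difference of 0.99 ± 0.15 (SE). Here double-mutant replicate 3 was the highest, and the control libraries lay close together. Tff3, the trefoil peptide of goblet cells at chr17:31125306-31129646, was at 315, 308 and 317 FPKM in ApcMin/+ tumors and at 498, 662 and 651 FPKM in double mutants. Its log2 difference was 0.93 ± 0.15 (SE), the smallest of the 8, over control libraries that differed by less, relative to their mean, than in any other member. Agr2, at chr12:35992907-36004087, encodes a disulfide isomerase of the endoplasmic reticulum needed to make MUC2. It was at 109, 98.8 and 111 FPKM in ApcMin/+ tumors and at 205, 273 and 182 FPKM in double mutants, a log2 difference of 1.03 ± 0.16 (SE). The double-mutant libraries of Agr2 spread more widely than the control libraries.

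Spink4, a Kazal-type protease inhibitor gene at chr4:40920052-40931395, was the most abundant of the 8 in tumors. It was at 499.5, 601 and 637 FPKM in ApcMin/+ tumors and at 1201, 1176 and 1073 FPKM in double mutants, a log2 difference of 0.995 ± 0.165 (SE). Unlike in Muc2, double-mutant replicate 1 was the highest. Retnlb, a resistin-like antibacterial protein gene at chr16:48816856-48818892, was the least abundant. It was at 6.57, 5.66 and 2.69 FPKM in ApcMin/+ tumors and at 12.8, 11.6 and 8.57 FPKM in double mutants, a log2 difference of 1.13 ± 0.31 (SE). Its values rest on 28 to 74 fragments per control library and 93 to 143 per double-mutant library. For each of the 8 the exact two-sided permutation p was 0.1, the smallest that 3 libraries against 3 allow.

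**Figure D1:**
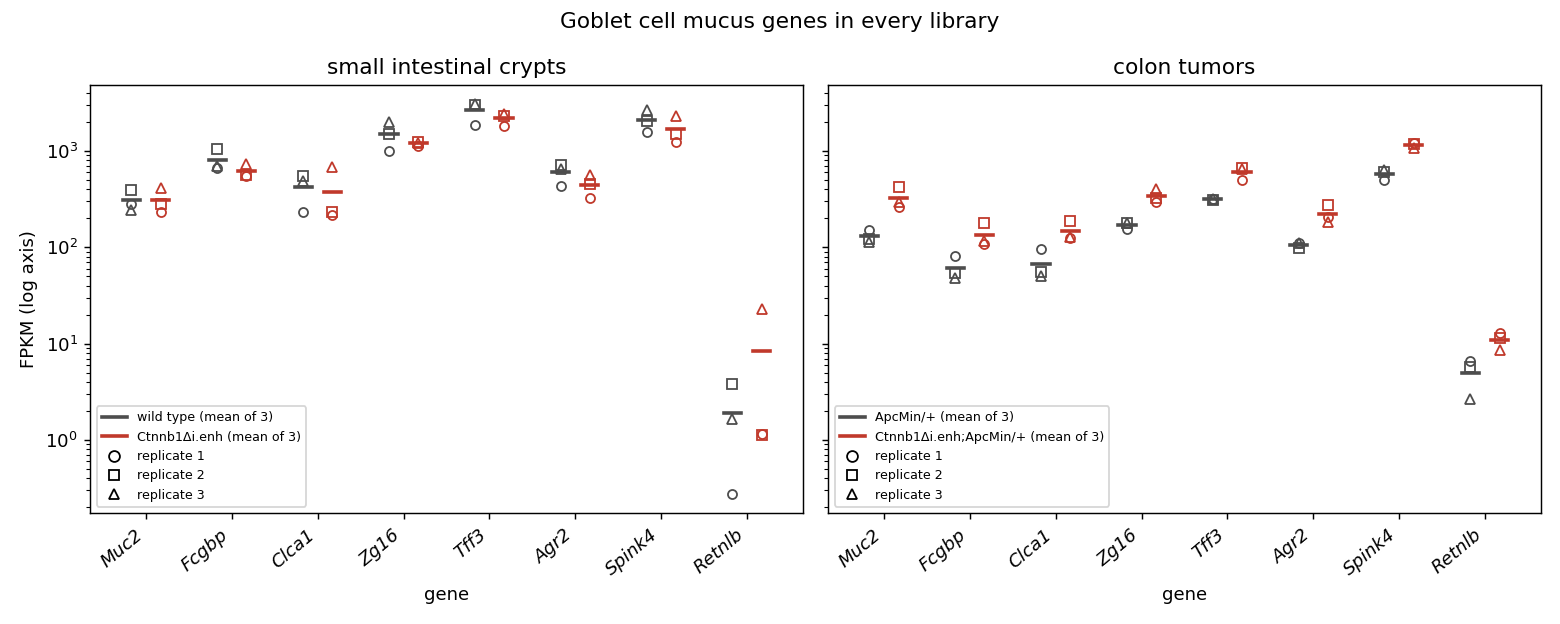
FPKM of the 8 genes on a log axis in every crypt library (left) and tumor library (right), with symbols for replicates and lines for the mean of 3. In tumors all double-mutant libraries lie above all ApcMin/+ libraries for each gene, while in crypts the genotypes overlap for each gene.

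The median log2 difference of the 8 in tumors was 1.07, against 0.01 over all genes tested. The 8 together took 0.309%, 0.250% and 0.239% of fragments on genes in ApcMin/+ tumors and 0.488%, 0.722% and 0.523% in double mutants. Exact 95% binomial intervals, which cover counting error only, were no wider than 0.718% to 0.726% in any tumor library, so counting error is small beside the spread between libraries. Within the males, without replicate 3 of both genotypes, the median log2 difference was 1.06, and between the Xist-expressing libraries, 1 a genotype and with no test, it was 1.22.

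**Figure D2:**
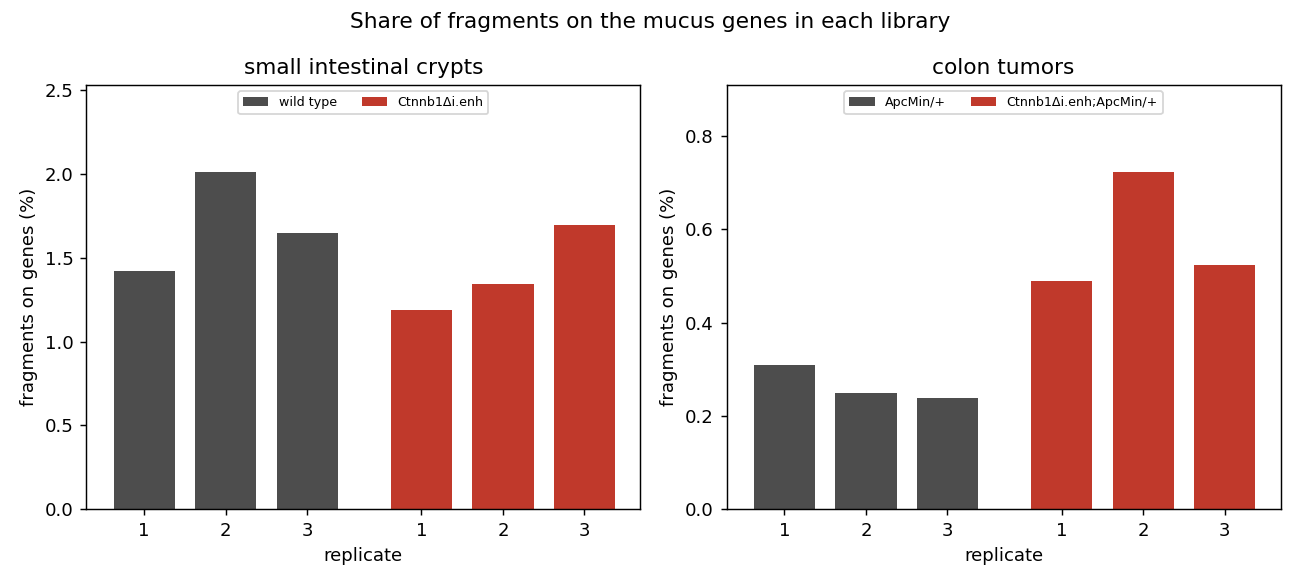
Percent of all fragments on genes that fell on the 8 genes, as 1 bar per library, for crypts (left) and tumors (right) on separate axes. Double-mutant tumors reach 0.488% to 0.722% and ApcMin/+ tumors 0.239% to 0.309%, and the crypt genotypes overlap.

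In small intestinal crypts the 8 genes did not separate the genotypes. None of them had groups that did not overlap, whereas 6.79% of the 14176 genes tested were higher without overlap and 5.15% lower. None had an unadjusted p under 0.05, against 3.48% of genes with a higher and 2.36% with a lower level. By limma, 0 of the 8 and 0% of all genes were called at an adjusted p under 0.05. Among the 8 the adjusted p was 0.896 or more. The median log2 difference of the 8 was -0.29, against 0.01 over all genes, and 2 of the 8 were above 0. It was -0.51, -0.14 and -0.15 without wild-type replicate 1, 2 or 3 and -0.13 without knockout replicate 1. Without wild-type replicate 3, 3 genes were called, none of the 8.

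Muc2 was at 283, 394 and 242 FPKM in wild-type crypts and at 234, 280 and 414 FPKM in knockout crypts, a log2 difference of 0.00 ± 0.27 (SE). Knockout replicate 3 was the highest library and knockout replicate 1 the lowest. Fcgbp was at 658, 1048 and 691 FPKM in wild type and at 542, 555 and 735 FPKM in knockouts, a log2 difference of -0.37 ± 0.25 (SE). Clca1 was at 234, 542 and 489 FPKM in wild type and at 213, 230 and 672 FPKM in knockouts, a log2 difference of -0.30 ± 0.51 (SE). In Clca1 a knockout library was both the lowest and the highest of the 6. Zg16 was at 1006, 1477 and 1992 FPKM in wild type and at 1118, 1234 and 1217 FPKM in knockouts, a log2 difference of -0.27 ± 0.28 (SE). All knockout libraries of Zg16 lay inside the wild-type range. Clca1 was at -0.84 without knockout replicate 3 and at -0.0103 without knockout replicate 1, and Zg16 at -0.53 without wild-type replicate 1 and at -0.0361 without wild-type replicate 3. Leaving out 1 library gave -0.23 to 0.20 for Muc2 and -0.51 to -0.16 for Fcgbp.

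Tff3, the most abundant of the 8 in crypts, was at 1828, 3011 and 3026 FPKM in wild type and at 1808, 2288 and 2407 FPKM in knockouts, a log2 difference of -0.25 ± 0.29 (SE). Agr2 was at 434, 711 and 647 FPKM in wild type and at 323, 453 and 561 FPKM in knockouts, a log2 difference of -0.43 ± 0.28 (SE). Wild-type replicate 1 was the lowest wild-type library of both genes and lay among the knockouts in each. Spink4 was at 1573, 2046 and 2637 FPKM in wild type and at 1223, 1506 and 2287 FPKM in knockouts, a log2 difference of -0.34 ± 0.32 (SE). Retnlb was at 0.278, 3.85 and 1.65 FPKM in wild type and at 1.15, 1.11 and 23.1 FPKM in knockouts, a log2 difference of 1.04 ± 1.12 (SE). The Retnlb difference rests on knockout replicate 3, which held 226 fragments against 3 to 41 in the other libraries, and was -0.25 without it. Leaving out 1 library gave -0.49 to -0.12 for Tff3, -0.64 to -0.21 for Agr2 and -0.59 to -0.14 for Spink4. Exact two-sided permutation p of the 8 genes in crypts was 0.3 to 1.

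Crypt libraries also differed in markers of other cells. The summed level of 6 Paneth cell markers, led by Defa24, was 17925, 26190 and 50414 FPKM in wild type and 19676, 17233 and 17863 FPKM in knockouts. All 6 were below 0 in log2 difference, 2 were lower at an unadjusted p under 0.05 (2.36% of all genes) and 2 lower without overlap (5.15%). Enteroendocrine markers, led by Chgb, summed to 182, 172 and 252 FPKM and to 127, 176 and 167 FPKM, and 2 of 6 were lower by each of these rules. Small intestinal absorptive markers, led by Fabp2, summed to 3038, 4575 and 8971 FPKM in wild type and to 6818, 5087 and 7824 FPKM in knockouts. All 6 were above 0 in log2 difference, with a median of 0.55, and 0 passed in either direction. Stomach markers, led by Tff2, summed to 164 and 93.1 FPKM in wild-type replicates 1 and 2. In the other crypt libraries they summed to at most 6.17 FPKM. Gkn1 and Gkn2 were listed at 0 in all knockouts and in wild-type replicate 3. Of 5 stomach markers tested, 5 were lower at an unadjusted p under 0.05 and 1 lower without overlap. The part of these cells in the values of the 8 genes was not tested. With wild type taken as replicate 3 alone, a choice made after the values were seen, the median log2 difference of the 8 was -0.53.

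The difference between the tissues was itself tested as an interaction of tissue and genotype over 13370 genes, with each knockout difference taken inside its own table. By limma, 0 of the 8 and 0% of all genes were called at an adjusted p under 0.05. Among the 8 the adjusted p was 0.437 or more. An unadjusted p under 0.05 with a more positive difference in tumors was found for 7 of the 8 and for 4.8% of genes, and with a more negative one for 0 of the 8 and 3.67% of genes. Clca1 did not pass, leaving 6 of 8, when any 1 library was left out other than wild-type crypt replicate 1, knockout crypt replicate 3 or ApcMin/+ replicate 1. The interaction was largest for Fcgbp, 1.48 ± 0.37 (SE) on the log2 scale, and was 1.18 ± 0.31 (SE) for Tff3. Retnlb was the exception, at 0.09 ± 1.30 (SE), and at -0.56 to 1.38 with a library left out. The median of the 8 was 1.32, against -0.01 over all genes.

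**Figure D3:**
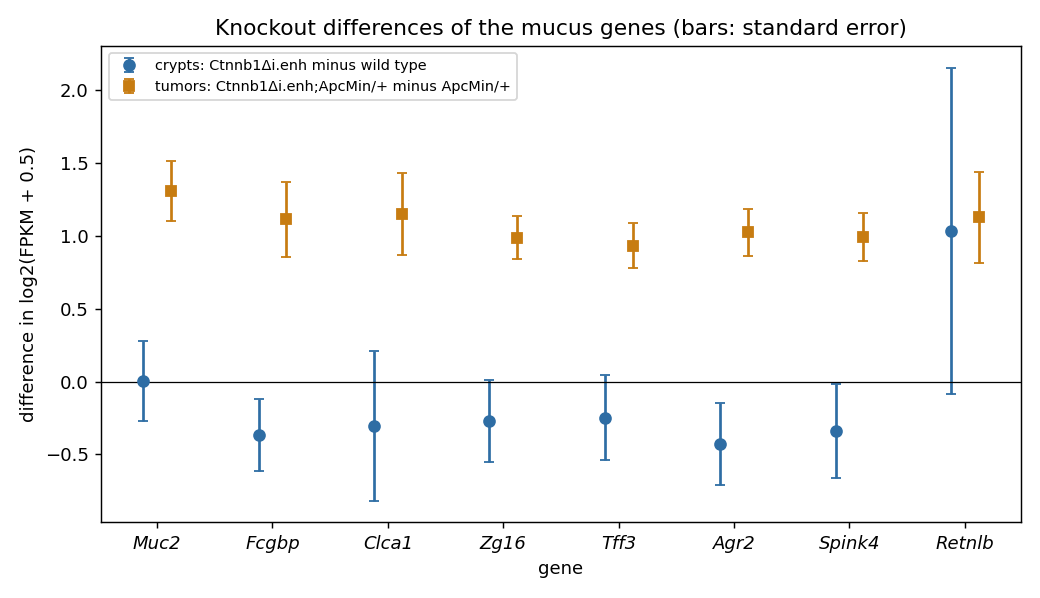
Knockout minus control difference in log2(FPKM + 0.5) of each gene, with standard errors, for crypts (circles) and tumors (squares). The tumor differences lie between 0.93 and 1.31, and those of crypts between -0.43 and 0.00 apart from Retnlb at 1.04.

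Likeness among the 8 genes is given as a description. Pearson r between pairs of them, over the 6 libraries of a table and with both genotypes among the points, was 0.69 to 0.99 in tumors and -0.08 to 0.93 in crypts. Of 28 pairs, 12 had r of at least 0.9 in tumors and 1 in crypts. As a description with no test, the genes most like the mean of the 8 in tumors, among 14543 genes, were Cgref1, Slc35a1, Slc35a2, Tbc1d2 and Dzip1l, with r of 0.998 to 0.993. In crypts, among 12280 genes, they were Vps37c, Prdm10, Tfcp2l1, Mpp5 and Gata5os, with r of 0.994 to 0.985. By the lower r of both tables they were Nt5e, Anxa3, Tspan13, Bcar1 and C2cd2l, with a lower r of 0.951 for Nt5e and 0.915 for C2cd2l.

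Of 10 goblet cell transcription factors, 6 were higher in tumors at an unadjusted p under 0.05 and 0 lower, with a median log2 difference of 0.36, and in crypts 0 of 10 passed in either direction, with a median of -0.29. Over all genes, here and for the lists that follow, such a p came with a higher level in 8.46% and a lower one in 6% in tumors, and in 3.48% and 2.36% in crypts. Spdef was at 8.90, 8.02 and 8.73 FPKM in ApcMin/+ tumors and at 17.3, 24.8 and 14.3 FPKM in double mutants, a log2 difference of 1.06 ± 0.19 (SE). Atoh1, which starts the secretory lineage, was at 5.88, 6.60 and 6.72 FPKM and at 8.88, 13.9 and 7.89 FPKM, a log2 difference of 0.60 ± 0.21 (SE). Groups of both genes did not overlap, and double-mutant replicate 2 was the highest library, without which Atoh1 was at 0.36. Xbp1 and Creb3l1, factors of the secretory apparatus, had log2 differences of 0.39 ± 0.10 and 0.43 ± 0.13 (SE), also without overlap. Foxa2 alone was below 0, at -0.37 ± 0.20 (SE) and with overlap, and at -0.19 without ApcMin/+ replicate 3 and -0.24 without double-mutant replicate 2.

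Another list held 10 genes of mucus processing, ion transport and stress or immune sensing, not all of them particular to goblet cells. In tumors 3 of 10 tested were higher at an unadjusted p under 0.05 and 0 lower, against 8.46% and 6% of all genes. The median log2 difference was 0.38, and 8 of 10 were above 0. Ern2 and Slc12a2 were below 0, with overlap. Capn9 had a log2 difference of 0.72 ± 0.17 (SE), and the meprin genes Mep1b and Mep1a had 0.84 ± 0.30 and 0.68 ± 0.25 (SE), or 0.54 and 0.42 without double-mutant replicate 2. Best2, a bestrophin channel gene of colonic goblet cells, was at 0 in all crypt libraries and at 4.65 to 13.9 FPKM in tumors, with a log2 difference of 0.61 ± 0.27 (SE), or 0.30 without ApcMin/+ replicate 1. In crypts, where 3.48% of all genes were higher and 2.36% lower at such a p, 1 of 8 tested was higher and 1 lower. Slc26a3 was higher, by 0.46 ± 0.15 (SE) and without overlap, and Ern2 lower, by -0.82 ± 0.29 (SE). Slc26a3 did not pass without wild-type replicate 1, knockout replicate 1 or knockout replicate 3. Ern2 did not pass without wild-type replicate 2 or 3 or knockout replicate 1 or 2. Slc26a3 is also a marker of colon absorptive cells, of which 2 of 4 tested were higher in crypts, Car4 being the other. Guca2a and Krt20 were below 0 in log2 difference, with overlap. The ratio of group means was 0.901 for the summed colon absorptive markers in crypts, knockout to wild type.

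Of 12 other products listed for goblet cells, 6 were higher and 0 lower in tumors at an unadjusted p under 0.05. The median log2 difference of the 12 was 0.61, and not all of them are particular to goblet cells. Tpsg1 and Guca2a had log2 differences of 1.12 ± 0.15 and 1.13 ± 0.20 (SE), and Galnt12, an enzyme that starts O-glycans, and Rep15 had 0.78 ± 0.16 and 0.75 ± 0.20 (SE). Guca2a is also among the colon absorptive markers below, and Itln1, another of the 12, among the Paneth cell markers. In crypts 0 of the 12 passed, with a median of -0.33. Lypd8 alone was higher without overlap, where 6.79% of all genes were. Its log2 difference was 0.34 ± 0.27 (SE), and 0.0759 without wild-type replicate 3. Of the membrane mucins 2 of 5 tested were higher in tumors, Muc3 by 1.09 ± 0.25 and Muc13 by 0.37 ± 0.12 (SE), and in crypts 0 of 3. Reads of Muc3, like those of the defensin gene Defa24, can be shared with related genes, so their levels are uncertain.

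Of 5 gel mucins and trefoil peptides of the stomach type, 2 were tested in tumors, with a median log2 difference of -0.69. At an unadjusted p under 0.05, 0 were higher and 1 lower, Muc6, by -1.22 ± 0.39 (SE). Muc6 was at 6.91, 16.5 and 17.5 FPKM in ApcMin/+ tumors and at 4.20, 7.65 and 4.21 FPKM in double mutants. The Muc6 groups overlap, since ApcMin/+ replicate 1 lay under double-mutant replicate 2. In crypts Muc6 was at 3.49 and 1.49 FPKM in wild-type replicates 1 and 2, whose stomach transcripts are given above, was lower in replicate 3 and did not exceed 0.0913 FPKM in knockouts. Of the IL-4 and IL-13 axis, known to raise goblet cell products, 1 of 6 tested was higher in tumors, Il13ra1 by 0.26 ± 0.09 (SE), where 8.46% of all genes were, and in crypts 0 of 4. Il25 was at 0 in all tumor libraries and Il13 did not exceed 0.0517 FPKM there.

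Markers of other cells also differed between the tumors. The summed level of 6 markers of colon absorptive cells, led by Car1, was 214, 164 and 182 FPKM in ApcMin/+ tumors and 302, 489 and 337 FPKM in double mutants, with 3 of 6 higher at an unadjusted p under 0.05, Guca2a among them. The summed level of 6 epithelial markers, led by Krt8, was 4079, 4158 and 3607 FPKM and 4819, 4673 and 4969 FPKM, with 1 of 6, Vil1, higher at an unadjusted p under 0.05 and all 6 higher without overlap, as were 8.46% and 11.4% of all genes. For stroma, led by Vim, it was 587, 423 and 503 FPKM and 596, 683 and 641 FPKM, with 4 of 6 higher at an unadjusted p under 0.05, namely Col1a1, Col3a1, Acta2 and Dcn but not Vim. The ratio of group means was 2.05 for the summed mucus genes, 2.02 for colon absorptive cells, 1.22 for epithelium and 1.27 for stroma. It was higher for small intestinal absorptive markers, whose summed means were only 1.61 and 3.55 FPKM. For 6 goblet markers apart from the mucus genes (Spdef, Ern2, Sytl2, Bcas1, Rep15 and Capn9) the ratio was only 1.38. Of these 6, 3 were higher at an unadjusted p under 0.05 and 0 lower. Ern2, the most abundant of them in tumors, was below 0 in log2 difference. The ratio of group means was 1.39 for enteroendocrine, 0.785 for tuft, 0.489 for stomach, 0.919 for stem cell and 0.975 for proliferation markers. At an unadjusted p under 0.05, 0 were higher in each of these lists and 2 of 3 stomach markers tested were lower. Muc6, given above, leads the stomach list and is among these 2. The 6 Paneth cell markers, led by Lyz1, summed to 1809, 1903 and 2024 FPKM and to 2694, 3964 and 1590 FPKM, and 0 of 6 passed. Double-mutant replicate 2 was the highest for colon absorptive and Paneth cell markers, and without it the median log2 difference of the mucus genes was 0.97. The part of these cells in the result was not tested.

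**Figure D4:**
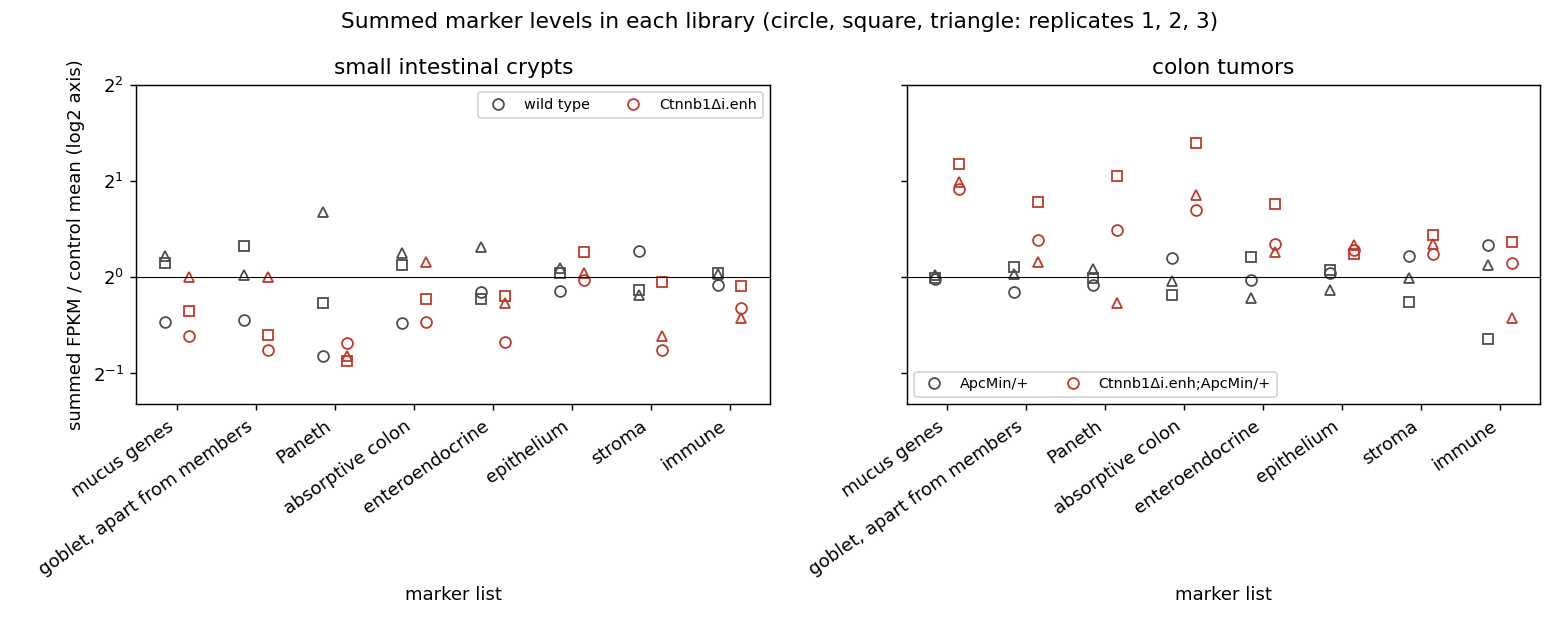
Summed FPKM of the mucus genes and 7 marker lists in each library, divided by the mean of its control group, on a log2 axis, for crypts (left) and tumors (right). Of the lists drawn, in tumors the mucus genes and the colon absorptive markers reach the highest ratios of group means, 2.05 and 2.02. The goblet markers apart from the mucus genes reach 1.38, and Paneth cell markers overlap.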

How the data were processed

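RNA of 12 libraries was measured by paired-end sequencing. The authors aligned reads with Hisat2 and counted them per gene with featureCounts, and the submitters' notes name cutadapt, HISAT2, Cufflinks 2.2.1, DESeq2 and mm10. The values the authors deposited are FPKM in 1 table per tissue. Use of strand is not given in the sources used here. Tables were tested separately. FPKM times gene length was a whole multiple of 1 step (tolerance 0.1) for 100% of values above 0, which gave the fragments and depth. Differences were fitted with limma 3.58.1 (R 4.3.3, variance trend, Benjamini-Hochberg over all genes) on log2(FPKM + 0.5), for genes with a mean of at least 0.5 FPKM, and tested on simulated data. Single genes also had an exact two-sided permutation test. Promoters are from RefSeq, gene positions from the tables, GRCm38. Members and lists were chosen with earlier results of these data known. Of each list the genes named with values are at most 4 per comparison, without overlap or with an unadjusted p under 0.05, and Foxa2. The authors call replicates biological, and p-values measure the spread between them.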

Additional observations from a re-analysis of the deposited data

How the results depend on the processing

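In tumors all 8 genes were higher without overlap and had an unadjusted p under 0.05 under each alternative with a test, and their median log2 difference was 0.89 to 1.07, and 0.97 to 1.19 with a library left out. No member reached an adjusted p under 0.05 in limma in any comparison or alternative, limma voom on recovered fragments included. Of 408 member values under alternatives, 13 changed direction, all of them Muc2, Tff3 or Retnlb in crypts or Retnlb in the interaction. Leaving out 1 library, the members' median in crypts was -0.51 to -0.13, and 6 to 7 members had such a p in the interaction. In crypts Muc2 was at -0.0569 with libraries at the same sum without the 50 highest genes and at -0.0766 with quantile normalization, where Tff3 was at 0.10. Leaving out a library gave -0.23 to 0.20 for Muc2 and -0.25 to 1.69 for Retnlb in crypts, and -0.56 to 1.38 for Retnlb in the interaction, which was -0.0493 with a pseudocount of 0.1. With replicate 3 as the only wild-type crypt library, assumed to vary like the knockouts, 1 member had an unadjusted p under 0.05, which rests on that assumption and is not used. Over all genes, an adjusted p under 0.05 was reached by 1 gene in tumors without a variance trend, by 1 in the interaction with a pseudocount of 0.1 and by 1 with the replicate block, and by 0 to 3 in crypts with a library left out. Replicate numbers were not treated as a pairing in the main fits. Deviations of same-numbered libraries correlated at -0.05, -0.12 and 0.04 in crypts and at 0.05, -0.09 and 0.05 in tumors. Wild-type replicate 1 and knockout replicate 2 of the crypts, with unlike numbers, correlated at 0.25. These values cannot exclude a pairing, and in tumors replicate 3 of both genotypes expressed Xist. With the replicate block the members' median was 1.07 in tumors, -0.29 in crypts and 1.32 in the interaction, with 0 members called in each. The causes were not tested. With 3 libraries a group no exact test can pass 0.05.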
